A study of Rattus norvegicus with 6 samples.

Results

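The genes of glycolysis, gluconeogenesis, sugar transport and fructose metabolism were compared between the kidneys of Dahl salt-sensitive rats, named Dahl(S) in the labels and Dahl S here, and of Lewis rats. The set holds 41 genes chosen by name for their place in these pathways, with earlier results of these data known. A probe set, the group of short probes that measures a transcript on the array, counted for a gene when that gene was the single symbol annotated to it. By this rule 38 of the 41 genes had at least 1 probe set, 59 in all, among 14217 genes with a probe set on the array. All rats were male and received food with 8% NaCl from 5 weeks of age, for 8 weeks, and whole-kidney RNA of 3 Lewis and 3 Dahl S rats was hybridised to 1 array per rat. Rats on ordinary food were not analysed here, so inherited strain differences cannot be told apart from unequal responses to the salt diet.

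As background, glycolysis breaks glucose down to pyruvate in the cytosol, and gluconeogenesis runs the path in reverse, with its own enzymes at the irreversible steps. The kidney cortex is a site of gluconeogenesis: proximal tubule cells make glucose from lactate, glutamine and glycerol, and burn fatty acids and lactate rather than glucose. The same cells take filtered glucose back from the tubule fluid through sodium-coupled carriers, take up fructose, and recover filtered lactate, whereas the distal nephron and medulla use glycolysis more.

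In Dahl S, 3 of 5 tested gluconeogenic genes of the set and its fructose carrier gene were lower. So were both its tested monocarboxylate carrier genes and 1 pyruvate dehydrogenase kinase gene. Outside the set, the glucose carrier gene Slc2a4 was lower (-1.30) and the monocarboxylate carrier gene Slc16a7 higher (0.26), with limits given below. None of the set's 4 tested glucose carriers and 13 tested genes of upper and lower glycolysis passed the test in either direction. For glycolysis this depended on the scaling: Aldoa, Eno1 and Ldhb passed as lower with arrays scaled to a common median. Of 35 genes with a tested probe set, 7 fell in Dahl S and 0 rose (limma, adjusted p under 0.05; 12 lower and 2 higher at an unadjusted p under 0.05). They were Slc2a5, Slc5a12, Pck1, Pc, Slc16a1, Pdk2 and Fbp1. This was 20.0% of the tested genes, against 16.6% of all 9535 genes tested called in either direction, a near share; the share called lower was 7.59% over all genes and the share called higher 9.04%. Counted over all 15778 probe sets tested, 7.73% were called lower and 8.51% higher. The median difference of the 35 genes was -0.13 on the log2 scale, with 25 below 0 and 10 above, against a median of 0.00 over all genes. Differences are Dahl S minus Lewis in quantile-normalized log2(signal + 16), with the standard error (SE) of the fit and n = 3 arrays per strain. In the plot of all tested members by role, 6 of the 7 filled points belong to gluconeogenesis, fructose uptake and monocarboxylate carriers, and the remaining one is Pdk2.

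**Figure D1:**
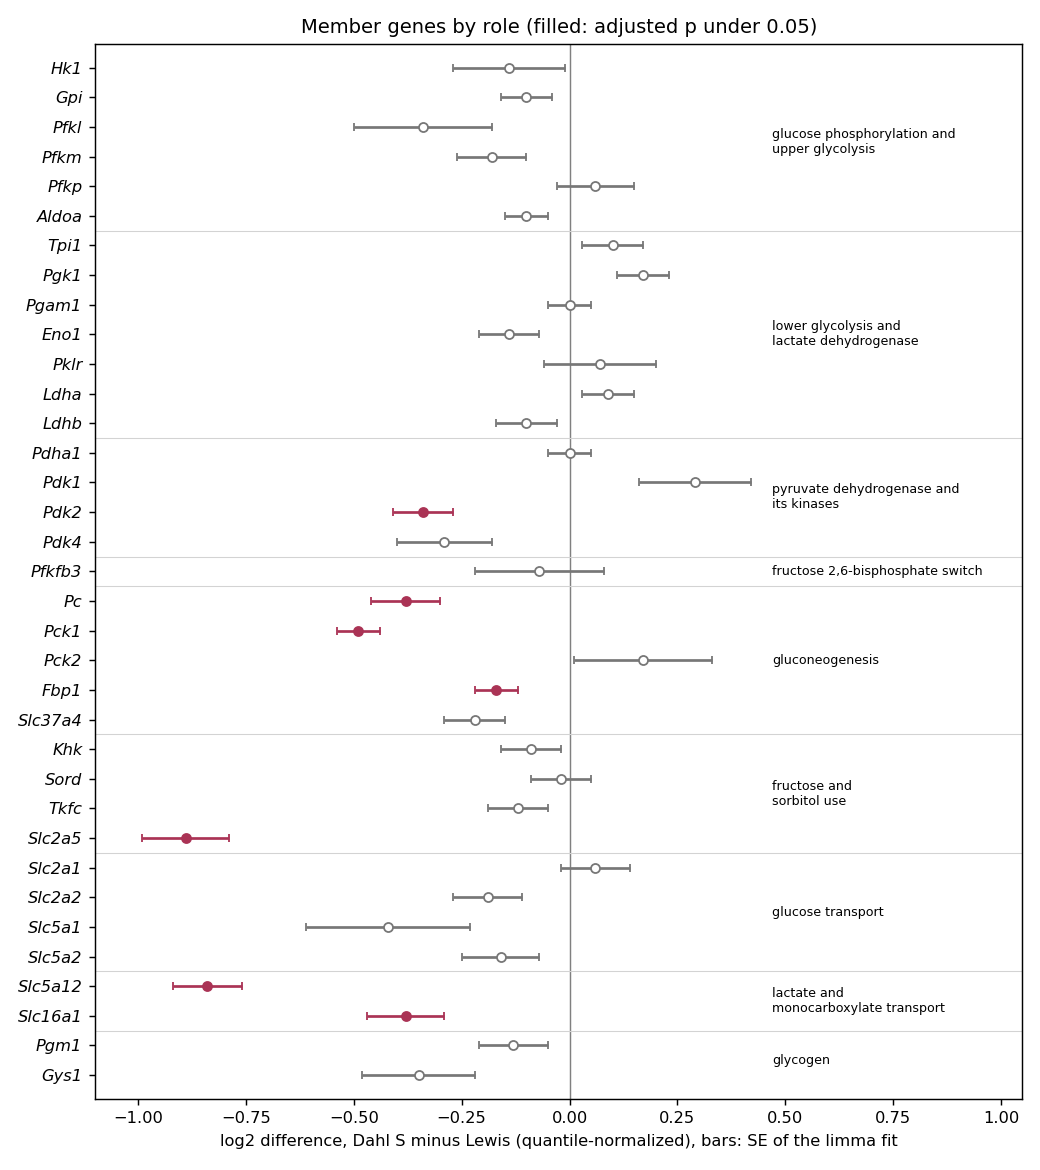
Log2 difference, Dahl S minus Lewis, on the x axis for each of the 35 tested genes, grouped by role; points are fitted differences, bars are SE, and filled points passed the adjusted threshold. The 7 filled points run from -0.89 (Slc2a5) to -0.17 (Fbp1), and no filled point lies above 0.

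The scale of these values depended on how arrays were made comparable. The deposited signals were not at a common level: the 2% trimmed mean ran from 119 to 230 on the Lewis arrays and from 205 to 250 on the Dahl S arrays. Without normalization the median difference over the probe sets tested was 0.41, and 0 members passed in either direction (limma, with 1 higher and 0 lower at an unadjusted p under 0.05). Though 29 of the 35 lay below that median, the shift was not the same for all probe sets. Pgam1, at 0.00 after quantile normalization, lay at 0.30, so the 29 are no count of lower genes. With arrays scaled to a common median 11 members were lower and 0 higher, and Aldoa, Eno1, Ldhb and Slc37a4 were among the 11. Arrays correlated at 0.980 to 0.988 within Lewis, 0.991 to 0.993 within Dahl S and 0.958 to 0.970 between strains. These correlations run over probe sets, which do not count as replicates.

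Kidney identity was plain on the arrays. All 12 proximal tubule markers passed the filter on low values, whereas 0 of 6 skeletal muscle markers and 0 of 5 liver markers did. Cell type markers moved with the strain. Each gene was counted by its brightest tested probe set, and over all genes tested 7.59% were called lower and 9.04% higher. Of the proximal tubule markers 5 were lower in Dahl S and 0 higher, with a median of -0.13. Outside this count, a second probe set passed as higher for Slc13a1 (0.33) and as lower for Slc34a1 (-0.62). The summed normalized signal of the proximal tubule markers was 57300 to 59900 in Lewis and 51600 to 52600 in Dahl S. Leukocyte markers went the other way, with 6 of 7 tested higher and a summed signal of 1210 to 1280 in Lewis and 1870 to 1920 in Dahl S. Erythrocyte markers were higher in 3 of 4 tested (4420 to 5450 in Lewis, 6130 to 6570 in Dahl S). Podocyte markers were lower in 2 of 4 (1820 to 1880 and 1410 to 1450), as were endothelial markers in 2 of 4 (2430 to 2660 and 2050 to 2220). The podocyte calls were Podxl (-0.79) and Wt1 (-0.36). Nphs1 (-0.10) and the brightest Synpo probe set (-0.04) did not pass, while a dimmer Synpo probe set did (-0.87). Of 6 thick limb markers 1 rose and 1 fell, and of 9 distal tubule and collecting duct markers 1 fell. The part of these shifts in the results below was not tested. In whole kidney, fewer cells of a type and less RNA per cell cannot be told apart.

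The start regions of the members called lower, other than Pc, are shown. These members share a direction because they were chosen by it, and common regulation was not tested. Each line gives the 250 bases before the transcription start in RefSeq's GRCr8 table, read 5′ to 3′ on the gene's strand, and 39 of the 41 genes had an entry (not Pgk1 or Pc). Capitals mark TGACGT, the core of the cAMP response element, and CACGTG, the E-box, on either strand; ACGTG, the core of the hypoxia response element, was searched too and is contained in every CACGTG. Pck1 lies at chr3:182348322-182348571 (+), Slc2a5 at chr5:165865929-165866178 (+), Slc5a12 at chr3:117633637-117633886 (+), Pdk2 at chr10:80483913-80484162 (-), Slc16a1 at chr2:194812410-194812659 (+) and Fbp1 at chr17:2213457-2213706 (+).
Pck1: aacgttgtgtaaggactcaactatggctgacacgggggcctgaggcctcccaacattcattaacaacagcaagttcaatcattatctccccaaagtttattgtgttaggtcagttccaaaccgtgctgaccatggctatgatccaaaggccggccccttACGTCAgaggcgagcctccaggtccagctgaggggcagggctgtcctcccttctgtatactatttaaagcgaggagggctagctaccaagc
Slc2a5: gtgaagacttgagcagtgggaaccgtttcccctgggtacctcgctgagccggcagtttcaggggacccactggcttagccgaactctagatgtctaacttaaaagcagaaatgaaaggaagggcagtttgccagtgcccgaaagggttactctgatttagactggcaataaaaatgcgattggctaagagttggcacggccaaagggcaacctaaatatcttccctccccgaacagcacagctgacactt
Slc5a12: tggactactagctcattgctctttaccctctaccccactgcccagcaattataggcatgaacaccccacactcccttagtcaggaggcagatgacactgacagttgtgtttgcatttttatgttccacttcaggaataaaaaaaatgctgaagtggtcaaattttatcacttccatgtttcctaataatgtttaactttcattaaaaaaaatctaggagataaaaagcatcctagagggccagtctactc
Pdk2: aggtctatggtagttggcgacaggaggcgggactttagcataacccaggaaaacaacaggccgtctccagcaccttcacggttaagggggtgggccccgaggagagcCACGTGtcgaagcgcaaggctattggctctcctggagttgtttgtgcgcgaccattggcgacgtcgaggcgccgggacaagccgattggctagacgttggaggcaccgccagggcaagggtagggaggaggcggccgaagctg
Slc16a1: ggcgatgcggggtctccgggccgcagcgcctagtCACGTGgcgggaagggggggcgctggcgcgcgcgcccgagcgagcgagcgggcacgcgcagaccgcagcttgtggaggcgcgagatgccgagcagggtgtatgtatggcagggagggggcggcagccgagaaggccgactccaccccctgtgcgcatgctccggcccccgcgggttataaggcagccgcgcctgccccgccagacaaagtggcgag
Fbp1: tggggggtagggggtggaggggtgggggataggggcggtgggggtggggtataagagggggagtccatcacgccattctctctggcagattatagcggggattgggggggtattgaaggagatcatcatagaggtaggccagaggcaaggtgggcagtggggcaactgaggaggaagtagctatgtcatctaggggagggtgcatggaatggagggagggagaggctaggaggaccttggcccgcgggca

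The Pck1 region held TGACGT on the opposite strand, written ACGTCA, at bases 91 to 86 before the start. Pck1 is a textbook target of cAMP signalling, and Tpi1, Ldha and Slc37a4 were the other members with this motif, which 7.25% of all 27457 regions held. CACGTG stood in Pdk2 at bases 143 to 138 and in Slc16a1 at bases 216 to 211, as well as in Ldha, Pfkfb3 and Slc5a1, and in 5.79% of all regions. ACGTG was found in 11 members and 16.9% of all regions. The Slc2a5, Slc5a12 and Fbp1 windows held none of the 3 motifs. A match is a string of letters in this window, and no binding was measured.

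Gluconeogenesis was the enzyme group with most calls: of 5 tested genes 3 fell, 0 rose and 2 did not pass (4 lower and 0 higher at an unadjusted p under 0.05). Over all genes tested 7.59% were called lower and 9.04% higher. The Fbp1 call was insecure, as given below. Pck1, probe set 1372264_at, encodes the cytosolic phosphoenolpyruvate carboxykinase that commits oxaloacetate to glucose synthesis. Its normalized log2 signal was 12.96, 12.87 and 12.91 in Lewis rats 1, 2 and 3, and 12.44, 12.40 and 12.43 in Dahl S rats 1, 2 and 3. Every Dahl S value lay below every Lewis value, and the spread within a strain was small (SD 0.04 and 0.02). Pck1 fell by 0.49 (SE 0.05, adjusted p = 2.1e-05), so that the Dahl S level was 71.3% of the Lewis level. Leaving out any single array kept the call, with differences from -0.51 to -0.44.

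Pc, probe set 1386917_at, encodes pyruvate carboxylase, the mitochondrial enzyme that makes oxaloacetate from pyruvate. It read 9.86, 9.98 and 9.95 in Lewis rats 1, 2 and 3 and 9.60, 9.43 and 9.61 in Dahl S rats 1, 2 and 3, and the strains did not overlap. Pc fell by 0.38 (SE 0.08, adjusted p = 0.0058), to 76.8% of the Lewis level. Fbp1, probe set 1368077_at, encodes fructose-1,6-bisphosphatase, which opposes phosphofructokinase. Its signals were 12.65, 12.65 and 12.67 in Lewis and 12.49, 12.46 and 12.51 in Dahl S. The gap was narrow and held in every array. Fbp1 fell by 0.17 (SE 0.05, adjusted p = 0.027), to 89.1% of the Lewis level. This call was the least secure of the 7: it was lost without a filter on low values (adjusted p = 0.12), without a variance trend (0.19), on leaving out Lewis array 3 (0.056) and on leaving out Dahl S array 1, 2 or 3 (0.080, 0.11 and 0.089). With arrays scaled to a common median Fbp1 differed by -0.40 (adjusted p = 0.0057).

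The remaining gluconeogenic genes did not pass. Slc37a4, which encodes the carrier that brings glucose 6-phosphate to glucose-6-phosphatase, read 11.32, 11.14 and 11.05 in Lewis and 10.92, 10.96 and 10.97 in Dahl S. Its ranges did not overlap, but the difference of -0.22 (SE 0.07) gave an adjusted p of 0.060, which became 0.029 with arrays scaled to a common median (-0.31) and 0.024 without Lewis array 3 (-0.28). Pck2, the mitochondrial counterpart of Pck1, differed by 0.17 (SE 0.16, adjusted p = 0.52). Lewis values of Pck2 were scattered, at 8.21, 8.07 and 7.47, against 8.13, 8.07 and 8.06 in Dahl S, and its second probe set gave -0.06. The probe sets of G6pc1, the glucose-6-phosphatase gene, are annotated to other genes as well, so no value is given for it.

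Slc2a5 had the largest difference of the set. It encodes GLUT5, the facilitative fructose carrier, which in kidney sits on the brush border of proximal tubule cells. On probe set 1368460_at its signals were 9.71, 9.96 and 9.63 in Lewis rats 1, 2 and 3 and 8.81, 8.97 and 8.84 in Dahl S rats 1, 2 and 3. The highest Dahl S value was well below the lowest Lewis value. Slc2a5 fell by 0.89 (SE 0.10, adjusted p = 5.5e-05), a Dahl S level of 53.8% of that in Lewis, and leaving out single arrays gave -0.96 to -0.79.

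The enzymes that use fructose after its uptake did not pass. Khk, ketohexokinase, which phosphorylates fructose, differed by -0.09 (SE 0.07, adjusted p = 0.39), Tkfc, triokinase, which acts after the aldolase step, by -0.12 (SE 0.07, adjusted p = 0.26), and Sord, sorbitol dehydrogenase, which makes fructose from sorbitol, by -0.02 (SE 0.07, adjusted p = 0.88). The second probe set of Sord gave -0.16 (adjusted p = 0.087). Khk read 11.10, 11.27 and 11.13 in Lewis and 11.03, 11.15 and 11.02 in Dahl S, with overlapping ranges. Tkfc signals of 10.57, 10.54 and 10.56 in Lewis lay just above the 10.34, 10.53 and 10.44 of Dahl S. Thus of the 4 genes of fructose and sorbitol use 1, the carrier, fell and 3 did not pass.

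Both genes of lactate and monocarboxylate transport tested in the set fell, while Slc16a7, outside the set, rose by 0.26. Slc5a12 encodes SMCT2, a sodium-coupled carrier that takes lactate from the fluid of the proximal tubule. On probe set 1383832_at it read 9.75, 9.69 and 9.85 in Lewis rats 1, 2 and 3 and 8.93, 8.86 and 8.98 in Dahl S rats 1, 2 and 3. The strains lay far apart compared with the spread within each (SD 0.08 and 0.06). Slc5a12 fell by 0.84 (SE 0.08, adjusted p = 2.0e-05), to 56.0% of the Lewis level. Its second, dimmer probe set, 1391533_at, fell by 0.75 (SE 0.13, adjusted p = 0.0018). Slc16a1 encodes MCT1, a proton-coupled carrier of lactate and pyruvate. Its values on probe set 1386981_at were 9.75, 10.05 and 9.75 in Lewis and 9.49, 9.42 and 9.49 in Dahl S. All Dahl S arrays were below all Lewis arrays, of which array 2 stood highest. Slc16a1 fell by 0.38 (SE 0.09, adjusted p = 0.013), and leaving out Dahl S array 2 ended the call (-0.36, adjusted p = 0.063).

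**Figure D2:**
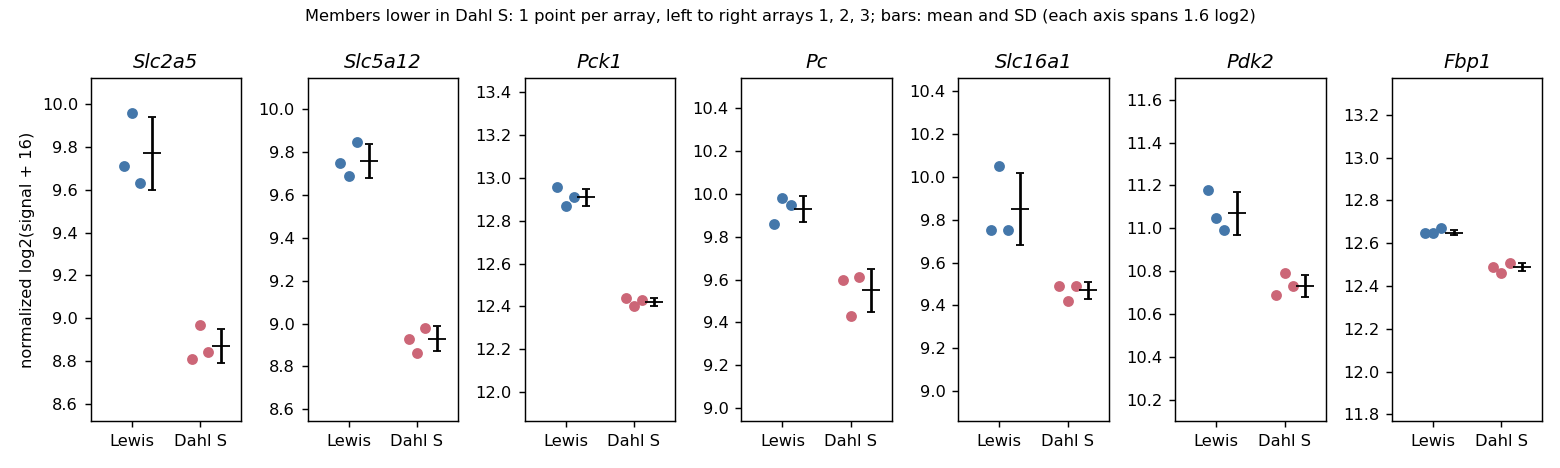
Normalized log2(signal + 16) on the y axis for the 7 genes lower in Dahl S, with 1 point per array and the mean and SD of each strain; every panel spans the same log2 range. The ranges of Lewis and Dahl S do not overlap in any of the 7 panels, and the gap is widest for Slc2a5 and Slc5a12.

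None of the 4 glucose carriers tested in the set passed (limma, adjusted p under 0.05, with 1 lower and 0 higher at an unadjusted p under 0.05). Slc5a2 encodes SGLT2, which takes up most of the filtered glucose in the early proximal tubule, and differed by -0.16 (SE 0.09, adjusted p = 0.25). Its signals of 9.83, 10.11 and 9.88 in Lewis overlapped the 9.86, 9.69 and 9.79 of Dahl S. Slc5a1, which encodes SGLT1, the carrier of the late proximal tubule, differed by -0.42 (SE 0.19, adjusted p = 0.17). It was dim and scattered in Lewis, at 6.70, 7.50 and 6.86, against 6.81, 6.37 and 6.63 in Dahl S. Slc2a2, which encodes GLUT2, the basolateral exit for glucose, gave 9.88, 10.02 and 9.86 in Lewis and 9.81, 9.65 and 9.72 in Dahl S. Its ranges did not overlap and its difference of -0.19 (SE 0.08) did not pass (adjusted p = 0.12). Slc2a1, which encodes GLUT1, the widespread basal glucose carrier, differed by 0.06 (SE 0.08, adjusted p = 0.70).

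Upper glycolysis held no call: 0 of 6 tested genes passed (limma; 1 lower and 0 higher at an unadjusted p under 0.05), and the group's median was -0.12. Hk1, hexokinase 1, which traps glucose in the cell, differed by -0.14 (SE 0.13, adjusted p = 0.51), and Gpi, which turns glucose 6-phosphate into fructose 6-phosphate, by -0.10 (SE 0.06, adjusted p = 0.24). The phosphofructokinase subunit genes, which encode the committing step, gave -0.34 for Pfkl, the liver form (SE 0.16, adjusted p = 0.19), -0.18 for Pfkm, the muscle form (SE 0.08, adjusted p = 0.15), and 0.06 for Pfkp, the platelet form (SE 0.09, adjusted p = 0.72). Lewis rat 1 was high for Pfkl, at 8.54 beside 8.06 and 7.71, whereas Dahl S values were 7.78, 7.78 and 7.73. Without Lewis array 3 Pfkl differed by -0.54 and passed (adjusted p = 0.023). Aldoa, which encodes aldolase A, read 12.53, 12.39 and 12.40 in Lewis and 12.36, 12.35 and 12.30 in Dahl S. The difference of -0.10 (SE 0.05) did not pass (adjusted p = 0.25), except with arrays scaled to a common median (-0.30, adjusted p = 0.038).

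Lower glycolysis and lactate dehydrogenase held no call either, with 0 of 7 tested genes past the threshold (limma; 1 higher and 0 lower at an unadjusted p under 0.05) and a median of 0.07. Their directions depended on the scaling: Tpi1 (0.10), Pgk1 (0.17) and Pgam1 (0.00) were at -0.04, -0.06 and -0.14 with arrays scaled to a common median, where Eno1 (-0.14) and Ldhb (-0.10) passed at -0.37 (adjusted p = 0.0069) and -0.36 (adjusted p = 0.034). Pgk1 encodes phosphoglycerate kinase, the first step that yields ATP. It read 12.51, 12.40 and 12.27 in Lewis rats 1, 2 and 3 and 12.53, 12.54 and 12.62 in Dahl S rats 1, 2 and 3. The Dahl S values were all higher, by a margin that did not pass (SE 0.06, adjusted p = 0.087). Without Lewis array 1 Pgk1 passed at 0.21 (adjusted p = 0.014), while its second probe set gave 0.02 (adjusted p = 0.82).

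Pgam1, phosphoglycerate mutase, was the most even of the set, with 12.07, 12.04 and 12.09 in Lewis and 12.07, 12.06 and 12.08 in Dahl S. Eno1, enolase 1, read 12.54, 12.85 and 12.78 in Lewis and 12.58, 12.66 and 12.52 in Dahl S; without Lewis array 1, its lowest Lewis value, it passed at -0.22 (adjusted p = 0.0087). Pklr, the pyruvate kinase of liver, kidney and red cells, differed by 0.07 (SE 0.13, adjusted p = 0.78), and its second probe set by 0.13. Ldha, which encodes the lactate dehydrogenase subunit that predominates in muscle, read 10.84, 10.97 and 10.95 in Lewis and 11.01, 11.03 and 11.00 in Dahl S. Ldha was higher in every Dahl S array, but its difference of 0.09 (SE 0.06) did not pass (adjusted p = 0.34). The single probe set that names Pkm, the pyruvate kinase of most other tissues, also carries a pseudogene symbol, so no value is given.

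Pyruvate dehydrogenase feeds pyruvate into the citrate cycle, and its kinases switch it off by phosphorylation. Of 4 tested genes here 1 fell, 0 rose and 3 did not pass. Pdk2, a kinase of wide expression, read 11.18, 11.05 and 10.99 in Lewis rats 1, 2 and 3 and 10.69, 10.79 and 10.73 in Dahl S rats 1, 2 and 3 on probe set 1367892_at. The strains were separate, and Pdk2 fell by 0.34 (SE 0.07, adjusted p = 0.0051), to 79.0% of the Lewis level. Its second probe set, 1386975_at, fell by 0.44 (SE 0.09, adjusted p = 0.0060). Pdk4, the kinase induced by fasting and fatty acids, differed by -0.29 (SE 0.11, adjusted p = 0.084), with 7.97, 7.67 and 7.79 in Lewis against 7.53, 7.57 and 7.44 in Dahl S. The mean of its probe sets passed (-0.37, adjusted p = 0.024).

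Pdk1, a kinase gene induced by hypoxia, was higher in each Dahl S rat, at 6.93, 6.87 and 7.24 against 6.82, 6.59 and 6.74 in Lewis, and did not pass (0.29, SE 0.13, adjusted p = 0.16). Its second probe set gave 0.04. Pdha1, the catalytic alpha subunit of the enzyme itself, differed by 0.00 (SE 0.05, adjusted p = 0.97), and by -0.15 with arrays scaled to a common median. Pfkfb3 makes fructose 2,6-bisphosphate, the activator of phosphofructokinase. Its brighter probe set differed by -0.07 (SE 0.15, adjusted p = 0.81), and its dimmer one by -0.50 (SE 0.14, adjusted p = 0.028), so its probe sets disagree. Of the glycogen genes, Pgm1, phosphoglucomutase, differed by -0.13 (SE 0.08, adjusted p = 0.28), and Gys1, glycogen synthase, by -0.35 (SE 0.13, adjusted p = 0.099), with 8.07, 7.61 and 7.67 in Lewis and 7.34, 7.36 and 7.60 in Dahl S.

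Strain ranges did not overlap in 18 of the 35 genes, 15 with Dahl S below and 3 with Dahl S above. That is 51.4% of the members, against 35.1% of all genes tested (16.7% with Dahl S below and 18.4% above). The members with ranges apart that did not pass were, on the low side, Gpi, Pfkm, Aldoa, Pdk4, Slc37a4, Tkfc, Slc2a2 and Gys1 (from -0.10 to -0.35), and on the high side Pgk1, Ldha and Pdk1 (from 0.09 to 0.29). With 3 arrays a strain, the smallest two-sided p of an exact permutation test is 0.1, so separate ranges in a single gene have no firmer test than the fit.

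Hk2, Aldoc and Pfkfb2 had probe sets, none of which passed the filter on low values, and they have no test. Hk2, the insulin-responsive hexokinase, had deposited signals of 17.0, 18.4 and 19.0 in Lewis rats 1, 2 and 3 and 27.8, 28.9 and 27.9 in Dahl S rats 1, 2 and 3. These are near the pseudocount of 16 and are not normalized; after normalization its ranges overlapped. Aldoc lay between 15.3 and 37.7 on all arrays, and the 4 probe sets of Pfkfb2 between 2.5 and 64.5. Slc5a8, which encodes SMCT1, a second sodium-coupled lactate carrier, was not analysed here.

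Ratios of deposited signals within an array do not depend on any single scaling factor of that array, though an intensity-dependent method such as quantile normalization changes them. Each gene outside lower glycolysis was therefore divided, in the deposited signals, by the geometric mean of the 7 tested genes of lower glycolysis and lactate dehydrogenase on the same array. The level of such a ratio has no meaning of its own, since probe sets differ in brightness, and only its change between arrays is read. All 7 genes called lower had ratios below those of every Lewis array in every Dahl S array. They were called on these same arrays, so this shows how the calls depend on a scaling factor and is no independent support. Over the 28 genes, 10 ratios were apart with Dahl S below, 2 with Dahl S above, and 16 overlapped, against 8.49% below and 30.9% above among all 9528 other genes tested. The Pck1 ratio was 2.98, 2.30 and 2.48 in Lewis rats 1, 2 and 3 and 1.68, 1.66 and 1.73 in Dahl S rats 1, 2 and 3. That of Slc2a5 was 0.241, 0.295 and 0.250 in Lewis and 0.141, 0.167 and 0.144 in Dahl S. The log2 ratios differed by -0.80 for Slc2a5, -0.74 for Slc5a12, -0.61 for Pck1, -0.30 for Pdk2, -0.28 for Fbp1, -0.28 for Slc16a1 and -0.27 for Pc. The low ratios show unequal change of deposited signals among members, and do not show that lower glycolysis was unchanged. As the shift between strains in these signals differed with the probe set, unequal change in RNA does not follow from the ratios.

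Pairs of related members are given as a description, since they were picked after the calls were known. The ratio of the fructose carrier Slc2a5 to the glucose carrier Slc2a2 was 0.898, 0.959 and 0.850 in Lewis and 0.495, 0.624 and 0.544 in Dahl S. That of the lactate carrier Slc5a12 to the glucose carrier Slc5a2 was 0.947, 0.740 and 0.978 in Lewis and 0.517, 0.566 and 0.568 in Dahl S. In both pairs every Dahl S array was below every Lewis array. Pck1 over Fbp1 was 1.28, 1.18 and 1.17 in Lewis and 0.965, 0.967 and 0.955 in Dahl S. Pdk2 over Pdha1, kinase over substrate, was 0.576, 0.579 and 0.536 in Lewis and 0.443, 0.50 and 0.464 in Dahl S. Ldha over Ldhb, the lactate dehydrogenase subunits, was higher in each Dahl S rat, at 0.372, 0.377 and 0.373 against 0.212, 0.349 and 0.321 in Lewis. Lewis array 1, the dimmest array, had the lowest value by far, and neither gene passed by itself.

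**Figure D3:**
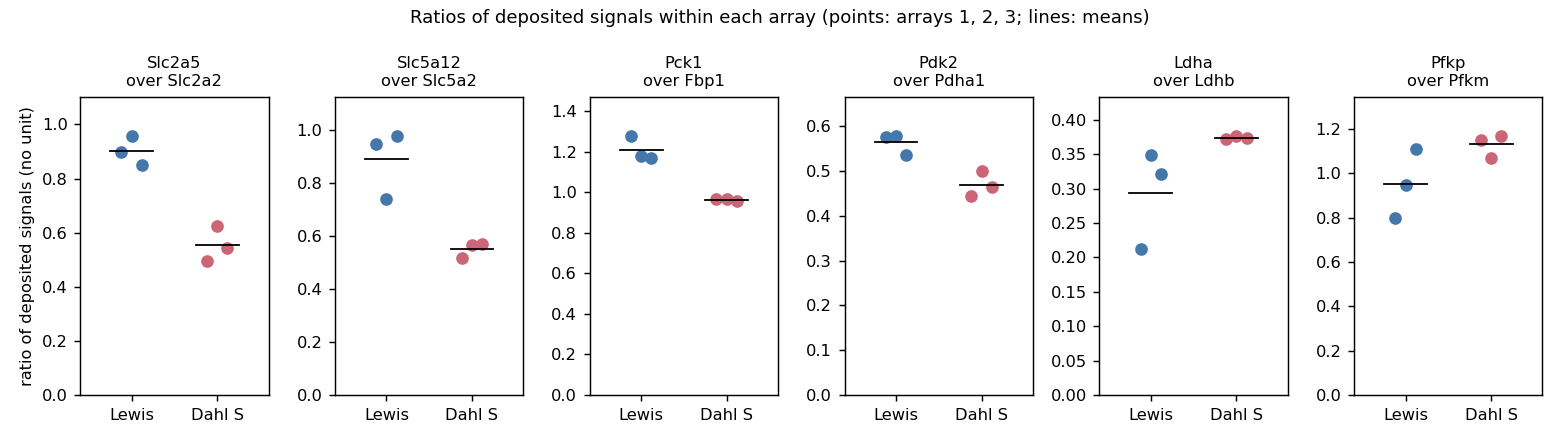
Ratio of deposited signals of gene pairs within each array on the y axis, from 0, with 1 point per array and a line at each strain's mean. Dahl S points lie below all Lewis points in the first 4 panels and above them for Ldha over Ldhb, while Pfkp over Pfkm overlaps.

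The rest of the pathway was read from 7 lists of 85 further genes, of which 57 had a tested probe set. Of these 9 fell, 4 rose and 44 did not pass, with a median of -0.03. The shares called over all genes tested were 7.59% lower and 9.04% higher. Slc2a4, which encodes GLUT4, the insulin-regulated glucose carrier of muscle and fat, had the largest difference of the 57. It read 7.73, 7.54 and 7.67 in Lewis rats 1, 2 and 3 and 6.30, 6.29 and 6.46 in Dahl S rats 1, 2 and 3, and fell by 1.30 (SE 0.12, adjusted p = 1.1e-05). Its second probe set gave -1.07 (adjusted p = 0.0012), and it passed in the deposited signals as well (-0.92, adjusted p = 0.038). Skeletal muscle markers were near background, with a summed signal of 53.9 to 81.7 in Lewis and 65.7 to 91.0 in Dahl S. Fat markers were summed to 291 to 326 in Lewis and 387 to 407 in Dahl S. Only 2 of them were tested: Fabp4 was called higher (0.71) and Adipoq did not pass (-0.09).

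Glycerol and gluconeogenic genes fell in 3 of 6 cases, with 0 higher. Gpd1, the cytosolic glycerol-3-phosphate dehydrogenase, fell by 0.43 (SE 0.09, adjusted p = 0.0045), with a second probe set at -0.46. Gk, glycerol kinase, fell by 0.27 (SE 0.07, adjusted p = 0.030), a call lost with arrays scaled to a common median (adjusted p = 0.072) and without any single array other than Lewis array 1. Its second probe set gave -0.69 (adjusted p = 0.030). Gpd2, the mitochondrial glycerol-3-phosphate dehydrogenase, fell by 0.79 (SE 0.14, adjusted p = 0.0026), but its second probe set differed by 0.29 (adjusted p = 0.31) and the mean of its probe sets did not pass (-0.25, adjusted p = 0.21). Pfkfb4, an isoenzyme of Pfkfb3, fell by 0.55 (SE 0.14, adjusted p = 0.019), with a second probe set at -0.82; the call was lost without Lewis array 2 or Dahl S array 2 or 3 (adjusted p = 0.085, 0.090 and 0.076) and without a filter (0.064).

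Of 11 tested glycogen and polyol genes 1 fell and 0 rose, and of 8 tested further sugar and monocarboxylate carriers 2 fell and 2 rose. Akr1b1, aldose reductase, which makes sorbitol from glucose and serves as an osmolyte enzyme of the medulla, read 10.74, 10.94 and 11.03 in Lewis and 10.33, 10.25 and 10.28 in Dahl S. It fell by 0.62 (SE 0.08, adjusted p = 2.1e-04). Slc5a3, the sodium-coupled myo-inositol carrier, read 10.06, 10.17 and 10.22 in Lewis and 10.59, 10.76 and 10.70 in Dahl S, and rose by 0.53 (SE 0.07, adjusted p = 3.8e-04). Slc5a11, another inositol carrier, fell by 0.28 (SE 0.08, adjusted p = 0.026). This call ended with arrays scaled to a common median (adjusted p = 0.069) and on leaving out Lewis array 2 or any one Dahl S array.

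Of the other lists, Tkt, transketolase of the pentose phosphate path, fell by 0.29 (SE 0.07, adjusted p = 0.011; 0.066 without Dahl S array 2, and 0.051 without a variance trend), and the other 5 tested genes of that path did not pass. Slc16a7, the monocarboxylate carrier MCT2, rose by 0.26 (SE 0.07, adjusted p = 0.017), a call lost with arrays scaled to a common median (0.16, adjusted p = 0.24) and without Lewis array 2 or Dahl S array 2 or 3. Pdhx, a structural subunit of pyruvate dehydrogenase, rose by 0.37 (SE 0.09, adjusted p = 0.012; 0.062 and 0.083 without Dahl S array 1 or 3). Pdp2, a phosphatase that reactivates the enzyme, fell by 0.25 (SE 0.08, adjusted p = 0.045). Leaving out any one array ended this call, while its second probe set differed by 0.07. Among 13 regulators of glucose metabolism 1 passed: Irs2, an insulin receptor substrate gene, rose by 0.48 (SE 0.15, adjusted p = 0.046). Its strain ranges overlapped, and the call was lost without Lewis array 2 or 3 or Dahl S array 2 or 3 (adjusted p from 0.11 to 0.19) and without a filter (0.12). Hnf4a, a transcription factor of proximal tubule and liver, was chosen after its values were seen, because its probe sets disagree. The brightest differed by -0.12 (adjusted p = 0.17), and the other 2 fell by 0.55 (adjusted p = 0.00079) and 0.50 (adjusted p = 0.0034).

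**Figure D4:**
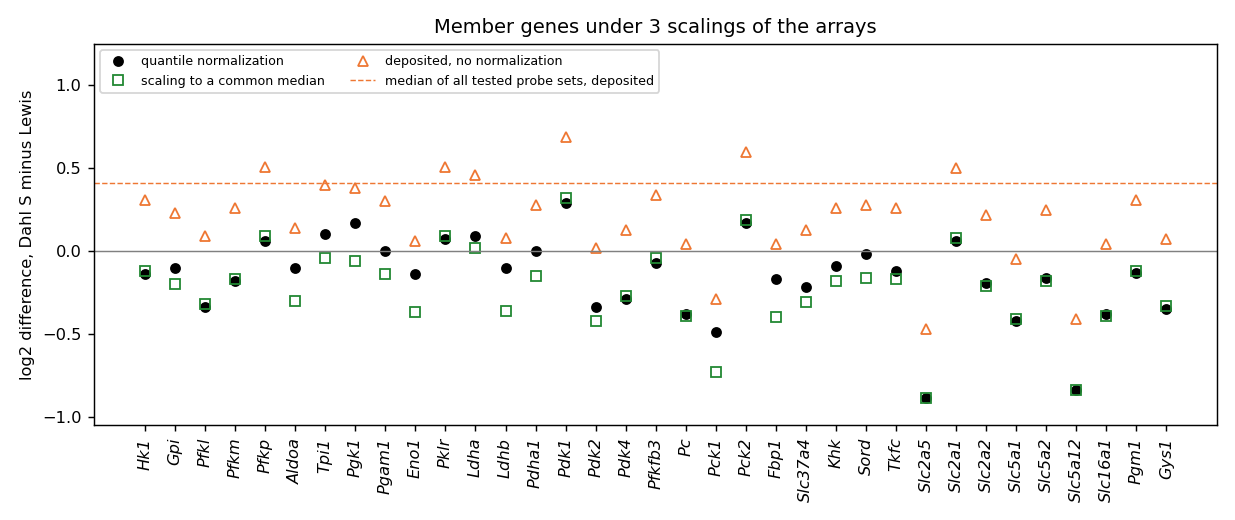
Log2 difference, Dahl S minus Lewis, on the y axis for the 35 tested members with quantile normalization, with median-scaled arrays and without normalization; the dashed line is the median of all tested probe sets in the deposited signals, 0.41. Slc2a5 and Slc5a12 lie lowest under each of the 3 scalings, and most deposited values lie between 0 and the dashed line.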

How the data were processed

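The authors deposited 1 linear signal intensity per probe set and array (31099 probe sets, 6 arrays), computed with GeneChip Operating Software version 1.4, per the labels. Their scaling target is not given in the sources used here, detection calls were not used, and arrays differed in level. Signals were quantile-normalized as log2(signal + 16) because of these unequal levels. Folds on this scale understate changes of dim genes, and quantile normalization hides a shift shared by most genes. After 57 control probe sets were left out, those with a normalized value above the overall median on 3 or more of the 6 arrays were tested (15778; 2561 passed, 16.2%). The strains were compared in R 4.3.3 with limma 3.58.1, using lmFit and eBayes with trended variances. Two-sided p-values were adjusted by Benjamini-Hochberg over all probe sets tested, with a threshold of 0.05. Every adjusted p is limma's. The steps were tested on simulated data.

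The probe set with the highest mean stood for a gene. Symbols came from the platform annotation, updated to RefSeq's GRCr8 gene table (20758 of 20826 probe sets with 1 symbol matched; 436 had several and 9780 none). All 41 members were named, and up to 4 called genes of each further pathway list, with the smallest adjusted p. Marker lists were summarised by counts. Members and lists were chosen with earlier results of these data known. The within-array ratios were added after seeing the data. The number of arrays limits the precision. Probe sequences that differ between the strains were not masked, so a difference in hybridisation and one in RNA level cannot be told apart for a single probe set.

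Replicate numbers are shared between strains in the titles. Deviations of same-numbered arrays from their strain means correlated at -0.05, -0.10 and 0.11, so the numbers were not treated as pairs. Each rat is a separate animal, per the labels. The design text speaks of independent experiments, and whether the replicate numbers mark them is not said.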

Additional observations from a re-analysis of the deposited data

How the results depend on the processing

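Leaving out single arrays moved the number of members lower in Dahl S from 5 to 8 and the number higher from 0 to 1. For all probe sets the ranges were 714 to 1239 lower and 660 to 1433 higher, and for the further pathway genes 4 to 10 lower and 1 to 6 higher. Differences that crossed 0 when single arrays were left out, none of them past the threshold, ran from -0.27 to 0.02 for Hk1, -0.02 to 0.14 for Pfkp, -0.01 to 0.02 for Pgam1, -0.05 to 0.23 for Pklr, -0.02 to 0.03 for Pdha1, -0.23 to 0.08 for Pfkfb3, -0.05 to 0.32 for Pck2 and -0.08 to 0.02 for Sord.

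In the deposited signals without normalization 47 probe sets were lower and 666 higher, 0 members lower, and 1 further pathway gene lower and 1 higher. A shift between the strains, with a median of 0.41 over the probe sets tested, is part of these differences. This shift was not the same for all probe sets: from normalized to deposited signals, Eno1 went from -0.14 to 0.06 and Hk1 from -0.14 to 0.31. Among members it turned Hk1 (0.31), Gpi (0.23), Pfkl (0.09), Pfkm (0.26), Aldoa (0.14), Eno1 (0.06), Ldhb (0.08), Pdk2 (0.02), Pdk4 (0.13), Pfkfb3 (0.34), Pc (0.04), Fbp1 (0.04), Slc37a4 (0.13), Khk (0.26), Sord (0.28), Tkfc (0.26), Slc2a2 (0.22), Slc5a2 (0.25), Slc16a1 (0.04), Pgm1 (0.31) and Gys1 (0.07) above 0, and among further genes Pdp2 (0.18), Gk (0.14), Tkt (0.08) and Slc5a11 (0.16). Pck1 (-0.29, adjusted p = 0.45), Slc2a5 (-0.47, adjusted p = 0.36) and Slc5a12 (-0.41, adjusted p = 0.40) stayed below 0 and lost their calls.

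With arrays scaled to a common median 11 members were lower, and Tpi1 (-0.04), Pgk1 (-0.06), Pgam1 (-0.14) and Pdha1 (-0.15) turned below 0; the mean of its probe sets put Pdha1 at -0.03. The cause was not tested. Among pseudocounts of 0 and 64, no filter, a stricter filter, no variance trend and the mean of probe sets, the count of members lower was 6 to 8.

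With the replicate number as a block 7 members were lower and 0 higher, against 1195 probe sets lower and 1290 higher, and Pdp2 (adjusted p = 0.068) and Irs2 (adjusted p = 0.054) lost their calls; no other call on a named gene changed. The numbers showed no pairing in the data. The 3 arrays per strain and dim signals near background limit what could be detected.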
